A study of Mus musculus with 26 samples.

Results

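The transcripts described here are the 10 genes of the insulin, AKT and FoxO axis of muscle mass: the receptors Insr and Igf1r, the adaptors Irs1 and Irs2, the kinases Akt1 and Akt2, the transcription factors Foxo1 and Foxo3, and the ubiquitin ligases Trim63 and Fbxo32. They were taken by gene symbol from the table of read counts, in which they are 10 of 56941 genes, and all 10 were among the 15357 genes with enough reads to test. RNA was sequenced from the left ventricle of 26 mice, 12 to 16 weeks old, each of which had received saline from an osmotic minipump for 2 weeks. The knockout mice (cKO, aMHC-CreTg/0-Ppp2r2aL/L; 7 males and 7 females) lack Ppp2r2a, which encodes B55α, a regulatory subunit of the protein phosphatase PP2A, in cells that express Cre from the cardiomyocyte promoter aMHC. The control mice (Ctrl, aMHC-Cre0/0-Ppp2r2aL/L; 6 males and 6 females) carried the same floxed alleles without Cre. The strain label is C57BL/6N, but the design text describes a mixed background, with the floxed line on C57BL6/N and the Cre line on FVB. No group with Cre and without floxed alleles is used here, so Cre and the loss of Ppp2r2a cannot be told apart. The questions the design poses for these genes are whether their transcripts differ with genotype in each sex, and whether that difference depends on sex.

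Insulin and IGF1 bind receptor tyrosine kinases, which phosphorylate the adaptors IRS1 and IRS2; these recruit PI3-kinase, and the lipid it makes brings AKT to the membrane, where it is activated. AKT phosphorylates FoxO factors and keeps them out of the nucleus. PP2A is among the phosphatases known to remove phosphate from AKT and FoxO proteins. FoxO factors that enter the nucleus of a muscle cell activate genes of atrophy, among them Trim63 (MuRF1) and Fbxo32 (atrogin-1), whose products mark muscle proteins for degradation. Transcript counts show none of these phosphorylation steps.

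Library totals ranged from 14.4 to 30.9 (in units of 1000000 counts). Ppp2r2a itself ranged from 11.8 to 16.2 counts per 1000000 (CPM, on totals scaled by TMM) in cKO males against 24.1 to 47.7 in Ctrl males, and from 9.96 to 16.2 in cKO females against 36.2 to 46.7 in Ctrl females, with no overlap in either sex. Ctrl males 3 and 6, at 24.9 and 24.1 CPM, were the lowest controls. Defining transcripts of heart muscle were present in every group: the summed level of 8 cardiomyocyte genes, Myh6 and Tnnt2 among them, ranged from 65117 to 88758 CPM over the 26 mice. The sums of 5 lymphocyte genes and 6 skeletal muscle genes did not exceed 1.73 and 1.43 CPM, and the skeletal myosin Myh4 was at 0 in all mice. In bulk tissue, fewer cells of a type and less RNA per cell cannot be told apart.

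No member passed the test in any comparison of cKO with Ctrl. Counted at an adjusted p under 0.05 (edgeR quasi-likelihood test, Benjamini-Hochberg over all 15357 genes), 0 of the 10 were called for genotype in males, where 0.443% of all genes tested were called. The same count was 0 for genotype in females, against 0.0326% of all genes, and 0 for the mean genotype effect over both sexes, against 1.33%. For the female genotype effect minus the male one it was 0, against 0% of all genes. Between the sexes, Foxo3 alone was called in Ctrl mice, as higher in females, where 0.638% of all genes were called and 0.287% as higher, and 0 members in cKO mice, where 2.7% of all genes were. At an unadjusted p under 0.05 the members numbered 4 for genotype in males (13.2% of all genes), 1 in females (5.15%), 1 for the difference (3.96%), 2 for the mean genotype effect (14.1%), 4 for sex in Ctrl (12.1%) and 2 for sex in cKO (17.3%). For 0 of the 10 members did a pair of groups fail to overlap, against 1.28% of all genes for genotype in males, 0.169% in females, 1.02% for sex in Ctrl and 1.09% for sex in cKO.

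**Figure D1:**
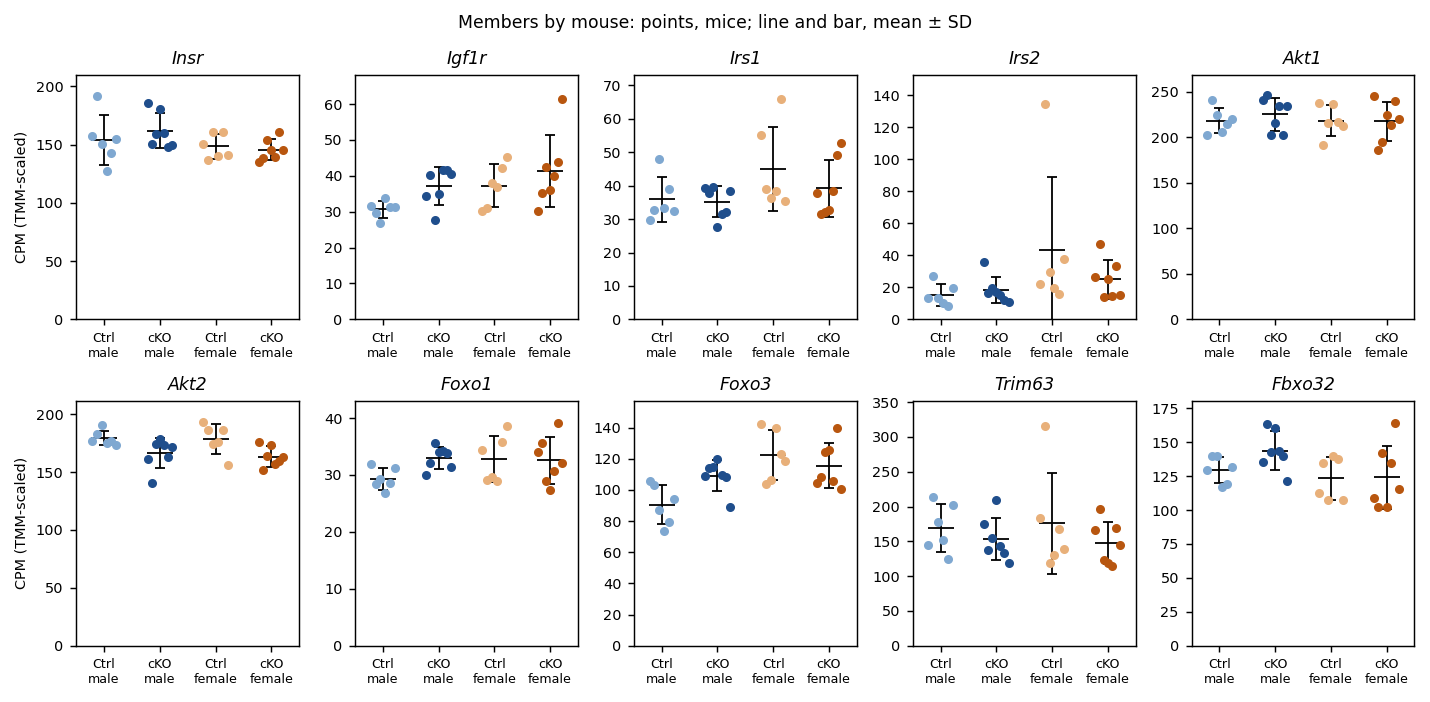
Expression of the 10 members in each mouse, in TMM-scaled counts per 1000000 (CPM, vertical axes from 0), for the 4 groups on the horizontal axes; points are mice, and the line and bar are the mean ± SD. The groups overlap for every member in every pairing of genotypes within a sex and of sexes within a genotype, and 1 Ctrl female stands at 134.7 CPM for Irs2 and 315.3 CPM for Trim63.

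Per kilobase of exon, the members spanned a wide range of levels. Trim63 had the highest mean over the 26 mice, 56.5 ± 15.2 CPM per kb (SD), and Akt1 followed at 53.6 ± 4.21; these neighbours were not ordered, since Trim63 was the higher in 13 of 26 mice. Akt2 was at 24.03 ± 1.74 CPM per kb, below Akt1 in all 26 mice with no overlap of their ranges. Fbxo32 (18.7 ± 2.59), Foxo3 (14.5 ± 2.27) and Insr (11.1 ± 1.10) formed the middle of the order, with ranges that overlapped from each to the next. Irs1 (4.23 ± 0.97) lay below Insr in all 26 mice, again with no overlap. Irs1, Irs2 (3.98 ± 3.84) and Foxo1 (3.69 ± 0.38) did not separate, and Irs2 exceeded Foxo1 in 9 of 26 mice. Igf1r was the lowest per kb, at 2.19 ± 0.44, below Foxo1 in all 26 mice although their overall ranges overlapped.

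**Figure D2:**
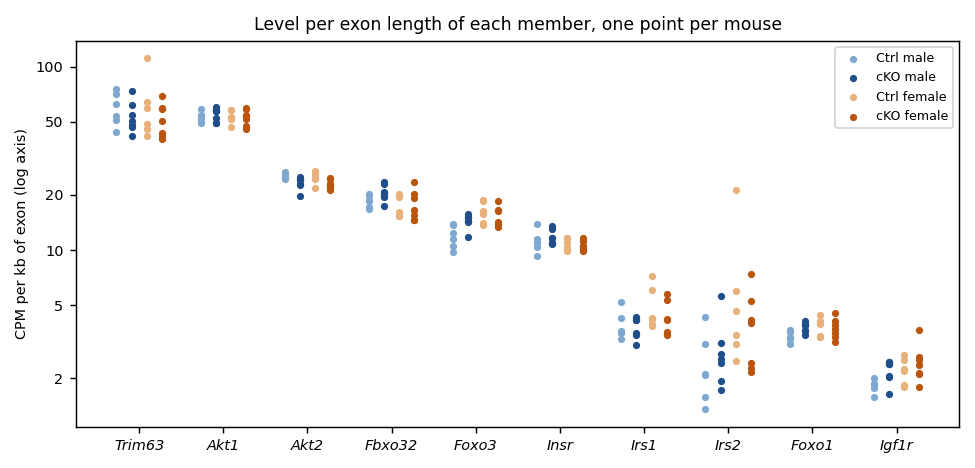
Level of each member per exon length (CPM per kb of exon, log vertical axis), 1 point per mouse, colours for the 4 groups, members ordered by their mean. Trim63 and Akt1 are the highest and intermingle, Igf1r is the lowest, and Irs2 has the widest spread.

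The receptors come first in the pathway. Insr (ENSMUSG00000005534), the insulin receptor, ranged from 127 to 191 CPM in Ctrl males (median 153) and from 148 to 186 in cKO males (median 159). In females it ranged from 137 to 161 CPM in Ctrl mice (median 146) and from 135 to 161 in cKO mice (median 145). The genotypes lay over each other in both sexes, and the log2 fold change was 0.07 in males (95% interval -0.07 to 0.22) and -0.03 in females (-0.17 to 0.12). All 7 cKO females were below the mean of the cKO males, 5 of them below the lowest cKO male; the log2 difference of -0.15 (SE 0.07) had an adjusted p = 0.247 (edgeR).

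Igf1r (ENSMUSG00000005533), the receptor for IGF1, ranged from 26.8 to 33.7 CPM in Ctrl males (median 31.2) and from 27.6 to 41.5 in cKO males (median 40.4). In males 6 of 7 cKO mice were above the highest Ctrl mouse, while cKO male 3 was within the control range. The log2 fold change in males was 0.28 (SE 0.13), with an adjusted p = 0.338. (edgeR) Ctrl females ranged from 30.2 to 45.3 CPM (median 37.4) and cKO females from 30.1 to 61.4 (median 39.97), with 1 of 7 cKO females above the highest Ctrl female and 1 below the lowest. The log2 fold change in females was 0.15 (95% interval -0.11 to 0.41), and without cKO female 7, the mouse at 61.4 CPM, it was 0.0299. Averaged over the sexes the genotype effect on Igf1r was 0.22 (SE 0.09; adjusted p = 0.246, edgeR). In Ctrl mice the log2 difference of females from males was also 0.28 (SE 0.13; adjusted p = 0.393, edgeR).

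The adaptors carry the signal from either receptor to PI3-kinase. Irs1 (ENSMUSG00000055980) ranged from 29.9 to 47.9 CPM in Ctrl males (median 33.0), 27.7 to 39.7 in cKO males (median 37.9), 35.4 to 65.9 in Ctrl females (median 38.7) and 31.5 to 52.7 in cKO females (median 37.9). All groups overlapped. The genotype effect was -0.03 in males (95% interval -0.34 to 0.29) and -0.20 in females (-0.51 to 0.12) on the log2 scale, and the difference of Ctrl females from Ctrl males was 0.33 (SE 0.16; adjusted p = 0.413, edgeR). Without Ctrl female 5, the mouse at 65.9 CPM, the genotype value in females was -0.0558 and the sex difference 0.1857.

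Irs2 (ENSMUSG00000038894) was the most variable member within groups. It ranged from 8.60 to 27.2 CPM in Ctrl males (median 13.3) and from 11.01 to 35.6 in cKO males (median 16.2). Ctrl females ranged from 15.7 to 134.7 CPM (median 25.6) and cKO females from 13.7 to 46.9 (median 25.4). The top value was that of Ctrl female 2; the next Ctrl female was at 38.0 CPM. The coefficient of variation was 45.1% in Ctrl males, 45.2% in cKO males, 106% in Ctrl females and 48.4% in cKO females, whereas no other member exceeded 41.2% in any group. In males the log2 fold change with genotype was 0.26 (95% interval -0.70 to 1.21), and without cKO male 1 it was 0.0041. The log2 fold change with genotype in females was -0.79 (95% interval -1.71 to 0.13), and without Ctrl female 2 it was 0.01. In Ctrl mice the log2 difference of females from males was 1.503 (SE 0.47; adjusted p = 0.163, edgeR), and all 6 Ctrl females were above the male mean; without Ctrl female 2 the difference was 0.70. Leaving out Ctrl female 2 thus took away the female genotype value and turned its sign, and it lowered the sex difference.

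Akt1 (ENSMUSG00000001729) and Akt2 (ENSMUSG00000004056) encode the AKT kinases that the heart expresses most; Akt2 is the isoform most tied to insulin-stimulated glucose uptake. Akt1 lay over the same range in all groups. It ranged from 203 to 240 CPM in Ctrl males (median 218), 202 to 246 in cKO males (median 234), 191 to 238 in Ctrl females (median 216) and 186 to 245 in cKO females (median 219). Its genotype effect was 0.04 in males (95% interval -0.09 to 0.18) and -0.0048 in females (-0.14 to 0.13) on the log2 scale.

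Akt2 ranged from 173 to 190 CPM in Ctrl males (median 177) and from 140 to 179 in cKO males (median 171). In females it ranged from 156 to 193 CPM in Ctrl mice (median 181) and from 152 to 176 in cKO mice (median 163). None of the 7 cKO males was above the Ctrl male mean and none of the 7 cKO females above the Ctrl female mean, although the ranges overlapped in both sexes. The log2 fold change was -0.11 (SE 0.05) in males and -0.13 (SE 0.05) in females, and the difference between these was -0.02 (95% interval -0.17 to 0.14). The mean over both sexes was -0.12 (SE 0.04; adjusted p = 0.111, edgeR), and Akt2 and Igf1r were the 2 members under the unadjusted threshold there. That value did not pass the threshold here, and the adjusted p ranged from 0.0380 with the DESeq2 Wald test to 0.186 over the alternatives tried. Group means here and below are ± SD over 6 Ctrl or 7 cKO mice of one sex. The ratio of Akt1 to Akt2 per kb of exon was 2.12 ± 0.11 for Ctrl and 2.38 ± 0.35 for cKO males, and 2.13 ± 0.21 for Ctrl and 2.31 ± 0.18 for cKO females.

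Foxo1 and Foxo3 are the transcription factors that AKT holds out of the nucleus. Foxo1 (ENSMUSG00000044167) ranged from 26.8 to 31.98 CPM in Ctrl males (median 29.0) and from 30.1 to 35.7 in cKO males (median 33.8). All 7 cKO males were above the Ctrl male mean and 5 above the highest Ctrl male, with a log2 fold change of 0.17 (SE 0.08; adjusted p = 0.320, edgeR). Females ranged from 29.0 to 38.5 CPM in Ctrl mice (median 31.98) and from 27.3 to 39.2 in cKO mice (median 32.03), and their genotypes overlapped throughout, at -0.01 (95% interval -0.16 to 0.15).

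Foxo3 (ENSMUSG00000048756) was the member that passed the test for sex. It ranged from 74.0 to 105.5 CPM in Ctrl males (median 90.6) and from 103.9 to 142.2 in Ctrl females (median 121). Of the 6 Ctrl females 5 were above the highest male, and the lowest, Ctrl female 2, lay between the 2 highest males at 103.2 and 105.5. The level was higher in Ctrl females by 0.44 on the log2 scale (SE 0.10), 1.35-fold, with an adjusted p = 0.0256. (edgeR) The call was close to the threshold: the adjusted p was 0.0510 without a filter on low counts, 0.0748 when only the compared groups were fitted, between 0.0555 and 0.0765 without Ctrl male 3, 4 or 5 or Ctrl female 1 or 4 (each left out alone), and 0.116 without Ctrl males 3 and 6, the pair of low Ppp2r2a, with the difference at 0.43. Beside it, the summed level of 5 adipocyte genes was 1.70 CPM on average in Ctrl males (0.855 to 3.95) and 4.10 in Ctrl females (1.94 to 7.17). None of these 5 genes was at 0 in all 26 mice. The 6 macrophage genes were all lower in Ctrl females, 0 of them called, with a median log2 difference of -0.23. Their sums were 173 to 296 CPM in Ctrl males and 162 to 222 in Ctrl females. The part of either list in the Foxo3 result was not tested.

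In the knockouts Foxo3 ranged from 89.0 to 119.8 CPM in males (median 110) and from 100.7 to 139.9 in females (median 108). The sexes lay over each other there, and the female minus male difference was 0.08 (95% interval -0.10 to 0.26). In males 6 of 7 cKO mice were above the highest Ctrl mouse, and cKO male 7, at 89.0 CPM, was within the control range; the log2 fold change was 0.27 (SE 0.09; adjusted p = 0.167, edgeR). In females it was -0.08 (95% interval -0.27 to 0.11). The female genotype effect minus the male one, which equals the sex effect in cKO minus that in Ctrl, was -0.35 (SE 0.13; adjusted p = 0.999, edgeR), so a sex difference that depends on genotype was not shown. All 10 members were below 0 in this contrast, with a median of -0.13, and 0 of the 10 were called. Of all genes tested, 51.6% were above 0, with a median of 0.01. Of the 94 other pathway genes tested, described below, 63 were below 0 too. Without Ctrl female 2 the value of Trim63 was 0.1408, and without Ctrl female 1 that of Akt2 was 0.0037. The median over the 10 members was 0.11 for genotype in males and -0.05 in females, against 0.00 for all genes in each.

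**Figure D3:**
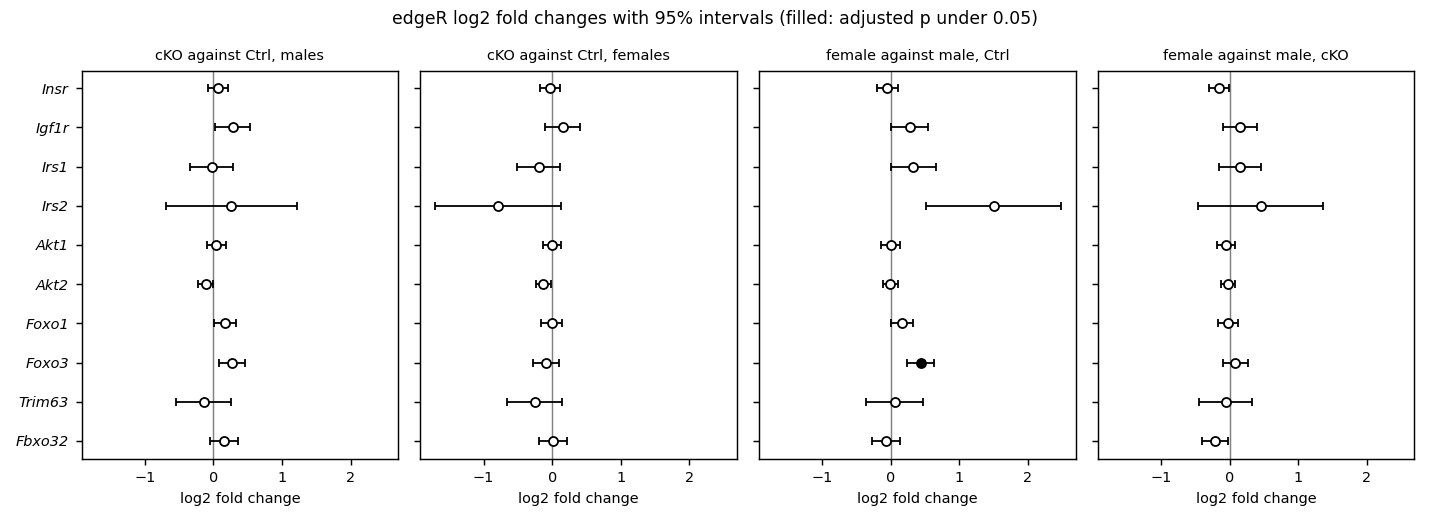
Log2 fold changes of the 10 members (horizontal axes) with 95% intervals from the edgeR fit, in 4 panels: genotype (cKO minus Ctrl) within males, genotype within females, sex (female minus male) within Ctrl and sex within cKO. A filled point marks an adjusted p under 0.05, which Foxo3 reaches in Ctrl mice (0.44); Irs2 has the widest intervals.

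The atrophy ligases are the end of the axis. Trim63 (ENSMUSG00000028834) ranged from 124 to 214 CPM in Ctrl males (median 165) and from 119 to 209 in cKO males (median 144). In females it ranged from 119 to 315 CPM in Ctrl mice (median 153) and from 115 to 197 in cKO mice (median 144). Its groups overlapped widely, and the top value was again that of Ctrl female 2. The log2 fold change was -0.14 in males (95% interval -0.55 to 0.26) and -0.25 in females (-0.65 to 0.15). Without Ctrl female 2 the female value was -0.0035, and the male value ranged from -0.0663 to -0.2338 as single mice were left out.

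Fbxo32 (ENSMUSG00000022358) ranged from 117 to 140 CPM in Ctrl males (median 130) and from 121 to 164 in cKO males (median 143). Ctrl females ranged from 107 to 140 CPM (median 124) and cKO females from 102 to 164 (median 115). In males 4 of 7 cKO mice were above the highest Ctrl mouse, at a log2 fold change of 0.15 (95% interval -0.05 to 0.35), and in females it was 0.01 (-0.19 to 0.21). In cKO mice the log2 difference of females from males was -0.21 for Fbxo32 (SE 0.09; adjusted p = 0.237, edgeR). The ratio of Trim63 to Fbxo32 per kb of exon was 3.19 ± 0.50 for Ctrl and 2.61 ± 0.43 for cKO males, and 3.48 ± 1.24 for Ctrl and 3.02 ± 0.95 for cKO females.

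How the members varied together among mice of one group was measured as the correlation of log2 CPM after the group means were removed, over 26 mice and all 45 pairs. Irs2 and Trim63 varied together, and theirs was the only pair of the 45 to pass: r = 0.757 (two-sided permutation p = 0.00055, adjusted over 45 pairs 0.0248) and Spearman's rho = 0.670 (permutation p = 0.0009, adjusted 0.0405). Within the groups r was 0.922 in Ctrl males, 0.623 in cKO males, 0.729 in Ctrl females and 0.803 in cKO females. Without the 2 mice farthest from the median of Irs2, cKO male 1 and Ctrl female 2, r was 0.618. Without Ctrl female 2 alone it was 0.599, with an adjusted permutation p = 0.0965, so the call was lost without that mouse and the sign was kept; it was also lost without Ctrl male 2 (r = 0.7398, adjusted permutation p = 0.0653), Ctrl male 5 (0.743, 0.0554) or cKO female 2 (0.733, 0.0644). The mouse numbered 2 had the highest Irs2 and the highest Trim63 in 3 of the 4 groups, and the labels do not say what a shared number means. The next pair, Insr with Foxo3, had r = 0.558 (adjusted permutation p = 0.124) and rho = 0.595 (adjusted permutation p = 0.0558). No FoxO factor passed with either ligase, and the pair of smallest p among those, Foxo3 with Fbxo32, had r = 0.497 (adjusted permutation p = 0.225). The share of mitochondrial counts in Ctrl female 2, 17.2%, was within the 17.0% to 18.3% of the Ctrl females, and its total of 21.2 (in units of 1000000 counts) was within their range too.

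**Figure D4:**
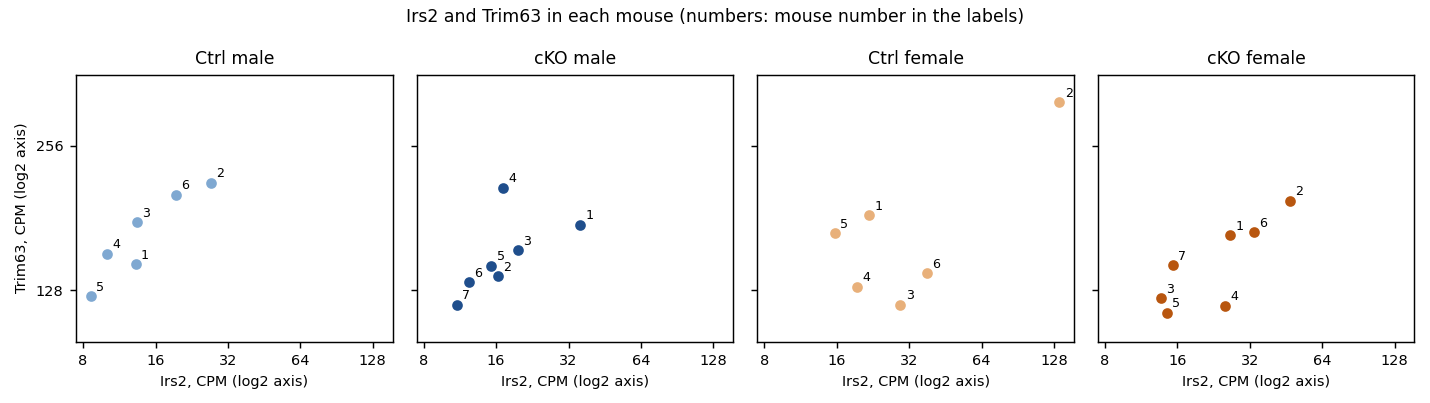
Irs2 against Trim63 in each mouse (CPM, both axes log2), 1 panel per group, points labelled with the mouse number. Within each group mice of high Irs2 tend to have high Trim63 (r from 0.623 to 0.922), and Ctrl female 2 is apart at the top right of its panel.

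The sequence before the start of Trim63 and of Irs2 is shown because these transcripts moved together. The windows are RefSeq's on GRCm38.p6, 250 bases up to the start of the transcript, 5′ to 3′ on the gene's strand. They lie at chr4:134314870-134315119 (plus strand) for Trim63 and chr8:11008930-11009179 (minus strand) for Irs2. Capitals mark a match to a searched motif.
Trim63: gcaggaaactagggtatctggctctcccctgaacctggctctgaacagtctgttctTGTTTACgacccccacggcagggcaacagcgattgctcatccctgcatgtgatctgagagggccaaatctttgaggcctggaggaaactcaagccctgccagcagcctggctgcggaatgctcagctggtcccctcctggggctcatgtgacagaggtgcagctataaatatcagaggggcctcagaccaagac
Irs2: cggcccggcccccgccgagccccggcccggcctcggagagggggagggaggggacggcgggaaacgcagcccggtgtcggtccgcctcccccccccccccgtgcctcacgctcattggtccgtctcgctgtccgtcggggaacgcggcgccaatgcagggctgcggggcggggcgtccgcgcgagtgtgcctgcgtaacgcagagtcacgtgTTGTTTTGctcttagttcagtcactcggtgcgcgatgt
The motifs searched on both strands were the FoxO binding element GTAAACA, the insulin response sequence CAAAACAA and the glucocorticoid response element (AGAACA and TGTTCT with 3 bases of any kind between them), none of which overlapped another match. RefSeq promoter windows of 300 bases (250 before the start and 50 after) were found for 8 of the 10 members, 12 windows in all; Insr and Fbxo32 had no entry. Trim63 held 1 FoxO element, read as TGTTTAC on its own strand, 187 bases before the start, and Irs2 held 1 insulin response sequence, read as TTGTTTTG, 30 bases before the start. Irs1 held the same insulin response sequence 25 bases before its start, and 1 of 2 Akt1 windows held a FoxO element 154 bases before its start. Those matches are shown with 10 bases on either side.
Irs1: cagccgccgcTTGTTTTGgttggggctc
Akt1: tctaccctctTGTTTACactcctggtg
Only exact matches were searched for. No window of Igf1r, Akt2, Foxo1 or Foxo3 held any of the 3 motifs, and no member held an exact match to the glucocorticoid element. The Trim63 window reads tgaacagtctgttct directly before its FoxO element, which differs from the glucocorticoid element searched at 1 base. Of all 32851 RefSeq windows, 3.65% held the FoxO element, 2.51% the insulin response sequence and 0.00913% the glucocorticoid element. Irs2 and Trim63 thus shared no exact match to the same motif in the windows searched. Their matches, TTGTTTTG and TGTTTAC, have the letters TGTTT in common, and whether a FoxO factor binds either was not tested.

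The genes most like each member over the 26 mice, by r of log2 CPM after removal of group means, are given as a description. Irs2 was most like Nr4a1 (r = 0.935), Sik1 (0.929) and Nfe2l2 (0.878); Nr4a1 and Sik1 are immediate early or signal-induced genes, and Nfe2l2 encodes the oxidative stress factor NRF2. Trim63 was most like Flcn (0.939), Rasgef1b (0.930) and Slc25a33 (0.895), of which Flcn encodes folliculin, a regulator of mTORC1 and AMPK signalling. The number of genes at r over 0.7 was 146 for Irs2 and 157 for Trim63, and it was 87 for Insr and between 3 and 25 for each of the other 7 members. Without Ctrl female 2 the first of these values were 0.892 for Irs2 with Nr4a1 and 0.957 for Trim63 with Flcn. Insr was most like Zyg11b (0.850), Prkaa2 (0.843), a catalytic subunit of AMPK, and Marchf6 (0.819). Foxo3 was most like Pik3r1 (0.808), the regulatory subunit of PI3-kinase, then Chm (0.794) and Nek7 (0.778). Akt2 was most like Hrc (0.829), a calcium-binding protein of the sarcoplasmic reticulum, then Agpat3 (0.793) and Ilrun (0.753). Igf1r was most like Prickle2 (0.802), Gab2 (0.783) and Eif5a2 (0.777), and Irs1 most like Setd1a (0.768), Asb11 (0.761) and Egln3 (0.730). Akt1 was most like Pdhx (0.773), Gm56728 (0.769) and Trmt61a (0.761), Foxo1 most like Mapk1ip1 (0.776), Fas (0.761) and Foxp1 (0.753), and Fbxo32 most like Gpr137c (0.755), Lmbr1 (0.713) and Nedd1 (0.706).

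The other genes of the pathway were read in 6 lists, of which 94 genes were tested. For genotype in males 0 of 94 were called, in females 0 of 94, and for the difference 0 of 94, against the shares of all genes given above. At an unadjusted p under 0.05 (edgeR), 9 were higher and 7 lower in males, where 6.11% and 7.09% of all genes were. In females 0 were higher and 7 lower, against 2.73% and 2.42% of all genes. Among 14 ligands, binding proteins and receptor regulators, 3 were higher and 1 lower in males at that level. Grb10, an adaptor that binds the insulin and IGF1 receptors and inhibits them, ranged from 76.7 to 101.2 CPM in Ctrl males and from 101.3 to 117 in cKO males, without overlap; 1.28% of all genes tested did not overlap in that comparison. Its log2 fold change was 0.22 (SE 0.07; adjusted p = 0.114, edgeR) in males and -0.02 (SE 0.07) in females. Igfbp7, a secreted binding protein of the IGF system, was at 169 ± 19.9 CPM in Ctrl males and 217 ± 19.3 in cKO males, at 0.37 (SE 0.11; adjusted p = 0.106, edgeR), with 6 of 7 cKO males above the highest Ctrl male.

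Of the 24 FoxO family members and target genes, 0 were called for genotype in either sex. Map1lc3a, which encodes an LC3 protein of the autophagosome, fell in the mean genotype effect by 0.16 on the log2 scale (SE 0.04; adjusted p = 0.0308, edgeR), and it was the only one of the 94 genes called there; 0.866% of all genes were called as lower. In the same contrast 8 of 8 cardiomyocyte genes were lower in cKO (1 called) and 7 of 7 fibroblast genes higher (0 called), and their part in the Map1lc3a result was not tested. It was at 385 ± 26.2 CPM in Ctrl males and 346 ± 9.20 in cKO males, and at 416 ± 13.6 in Ctrl females and 370 ± 38.0 in cKO females. The FoxO list's median was -0.02 in males and -0.06 in females, against 0.00 for all genes tested in each. In females 20 of 24 were below 0, whereas 51.1% of all genes tested were above 0. This was not particular to the FoxO list, since 61 of the 94 genes of all lists were below 0 in females. The count was 14 of 17 for ubiquitin ligases and atrophy genes, but 4 of 14 for ligands, binding proteins and receptor regulators. Slc2a4, the insulin-responsive glucose transporter GLUT4, had a log2 fold change of -0.14 (SE 0.06; adjusted p = 0.269, edgeR) in males and -0.14 (SE 0.06; adjusted p = 0.941, edgeR) in females, with 0 of 7 cKO mice above the control mean in either sex.

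Between the sexes, 1 of 94 pathway genes was called in Ctrl mice and 3 in cKO mice, all of them lower in females; 0.352% and 1.27% of all genes were called as lower in females in these comparisons. Mapkap1, a subunit of mTORC2, the complex that phosphorylates AKT, was lower in Ctrl females by a log2 value of -0.23 (SE 0.06; adjusted p = 0.0414, edgeR) and had -0.15 (SE 0.05; adjusted p = 0.0999, edgeR) in cKO mice. The 3 called in cKO mice were in the list of 17 tested ubiquitin ligases and atrophy genes. Fbxo40, a muscle ubiquitin ligase whose known target is IRS1, was at -0.28 (SE 0.07; adjusted p = 0.0242, edgeR). Mdm2, the ubiquitin ligase of p53, was at -0.20 (SE 0.05; adjusted p = 0.0315, edgeR), and Trim72 (MG53), a membrane repair protein and ubiquitin ligase, at -0.20 (SE 0.06; adjusted p = 0.0466, edgeR). In Ctrl mice these 3 had values of -0.24, -0.09 and -0.12, none called, and 0 of the 3 were called for the difference between the sex effects of the genotypes. Igf1, the ligand of Igf1r, was 14.5 ± 2.14 CPM in Ctrl males and 10.1 ± 1.34 in Ctrl females, at -0.52 (SE 0.16; adjusted p = 0.148, edgeR), and in cKO mice at -0.51 (SE 0.15; adjusted p = 0.0625, edgeR). The 6 macrophage genes were all lower in females in cKO mice too, 0 of them called (median -0.20, with sums of 188 to 307 CPM in cKO males and 165 to 255 in cKO females), and their part in the Igf1 values was not tested.

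**Figure D5:**
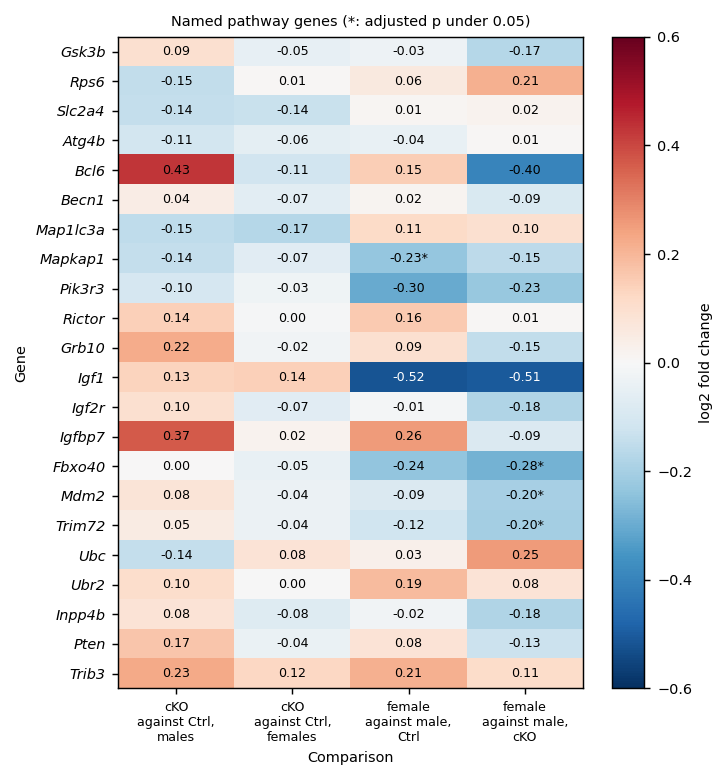
Log2 fold changes (colour and printed value) of the 22 pathway genes named by rule, 1 per row, in 4 comparisons: genotype (cKO minus Ctrl) within each sex, then sex (female minus male) within each genotype. An asterisk marks an adjusted p under 0.05, reached by Mapkap1 in Ctrl mice and by Fbxo40, Mdm2 and Trim72 in cKO mice; Igf1 is near -0.5 in both sex comparisons.

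On average the cardiomyocyte sum was lower in cKO mice of both sexes, and the fibroblast and atrial sums were higher. These sums were not tested, and not every cell type list went 1 way. The endothelial sum averaged 1680 CPM in Ctrl and 1573 in cKO males, but 1623 in Ctrl and 1710 in cKO females. The smooth muscle and pericyte sum averaged 840 and 846 CPM in males, and 843 and 817 in females. The sum of the 8 cardiomyocyte genes ranged from 74050 to 84415 CPM in Ctrl males and from 65117 to 78155 in cKO males, with 7 of 8 lower in cKO and 1 called. In females it ranged from 74571 to 88758 CPM in Ctrl and from 71609 to 83305 in cKO mice, with 8 of 8 lower and 0 called. The sum of 7 fibroblast genes ranged from 1918 to 2572 CPM in Ctrl males and from 2174 to 2565 in cKO males, and from 2055 to 2504 in Ctrl females and 2104 to 2912 in cKO females; 7 of 7 were higher in each sex and 0 called. Of 4 atrial genes, Nppa among them, 2 had enough reads to test, and these 2 were higher in cKO mice of each sex, 0 called. The sum of all 4 ranged from 87.4 to 424 CPM in Ctrl males and from 125 to 738 in cKO males. In females it ranged from 179 to 509 CPM in Ctrl and from 325 to 856 in cKO mice. All these ranges overlapped between the genotypes, and the part of these lists in the members' values was not tested.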

How the data were processed

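The authors deposited whole-number read counts per gene for all 26 samples in 1 table. Per the submitters' processing notes, the tools named are FastQC 0.74, cutadapt 4.6, STAR 2.7.11a and HTSeq, and the build is GRCm39; the annotation release and the strand setting of the counting are not given in the sources used here, so overlapping genes and near-identical copies are uncertain. Per the labels' protocols, libraries were stranded and poly-A selected from 500 ng of RNA of integrity number at least 7.7, from about 20 mg of tissue.

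Groups came from genotype and sex in the labels, and each numbered sample was taken as 1 mouse; the labels do not state this outright, so p-values measure the spread between these samples, which may be technical. Within groups, each of the 72 sample pairs differed in counts beyond sampling noise (chi-square per degree of freedom 7.79 to 36.4). The test was edgeR 4.0.16 (R 4.3.3): filterByExpr with a minimum count of 10, TMM scaling, and a fit with 1 mean per group over 26 mice (robust quasi-likelihood F tests, 6 contrasts, Benjamini-Hochberg over 15357 genes, threshold 0.05). CPM uses TMM-scaled totals and log2 CPM a prior count of 2. CPM per kb divides by the exon union of GENCODE M21, matched by gene ID, since GRCm39 models were not used here. Correlations used 100000 two-sided permutations within groups.

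Named pathway genes are those called in any contrast and, per list, the 2 of smallest p for genotype in males and for sex in cKO; likeness names the 3 genes of highest r. Grb10, Igfbp7 and others not called fall under this rule. The members and lists were chosen with earlier results of these data known. Of the 98 listed genes, Igfbp2, Insrr and Mstn were not tested and Murc was not found by symbol. The fits and correlations were checked on simulated data. Alternatives were DESeq2 1.42.0 size factors and Wald test, limma 3.58.1 voom with quality weights, genes without any filter or with 5 CPM on average, a replicate block, a prior count of 0.5 for the correlations, sva 3.50.0 with 1 surrogate variable, only the compared groups, and each mouse left out. A length and GC correction, omission of Ctrl males 3 and 6 and of outlying mice, and likeness without each mouse were chosen after seeing the data.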

Additional observations from a re-analysis of the deposited data

Results flagged for a closer look

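Within-group spread of CPM was examined for each of the 10 members in each of the 4 groups, 40 sets in all. By Dixon's criterion at 95%, 4 values from 3 mice stood apart from the rest of their group. Chance alone marks about 1 set in 20 when values are normally distributed. That was not tested for CPM, which was not log-transformed here, so the count cannot be weighed against that rate. Irs2 in Ctrl female 2 was 134.739 CPM, against 38.0 CPM for the next mouse, a gap of 0.813 of the group's range. Trim63 in the same mouse was 315.269 CPM, against 183 for the next, a gap of 0.674 of the range. Irs2 in cKO male 1 was 35.6302 CPM, against 19.7 for the next, a gap of 0.647 of the range. Foxo3 in cKO male 7 was 88.9919 CPM, the lowest of its group, against 108.3 for the next, a gap of 0.627 of the range.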

How the results depend on the processing

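Over the alternatives, the number of members called stayed at 0 for genotype in males, genotype in females, their difference and sex in cKO mice. For the mean genotype effect it became 1 (Akt2) with the DESeq2 Wald test and with the length and GC correction, and ranged from 0 to 1 as single mice were left out. For sex in Ctrl mice it became 0 without the filter, with only the compared groups and without Ctrl males 3 and 6, and ranged from 0 to 1 as single mice were left out. The number of correlated pairs was 3 with the replicate block, and Irs2 with Trim63 was not among them. It was 0 without the outlying mice, and ranged from 0 to 2 as single mice were left out. The cause of these changes was not tested. Signs turned in 15 of the 60 log2 fold changes. Without Ctrl males 3 and 6, Irs1 for genotype in males was 0.0625 and Akt2 for sex in Ctrl 0.0023. With a mean of at least 5 CPM, Akt1 and Foxo1 for genotype in females were 0.0027 and 0.0005. With the replicate block, Foxo1 for genotype in females was 0.0001, Irs2 in the mean genotype effect 0.0205 and Akt1 for sex in Ctrl -0.0026. With the length and GC correction, Fbxo32 for genotype in females was -0.0090, Insr in the mean genotype effect -0.0142, Akt1 for sex in Ctrl -0.0288 and Foxo1 for sex in cKO 0.0149. With 1 surrogate variable, Trim63 was 0.0687 for the difference, -0.0512 for sex in Ctrl and 0.0175 for sex in cKO. Trim63 for sex in Ctrl was -0.1050 with voom, and Akt1 for sex in Ctrl -0.0050 without the filter. As single mice were left out, values that turned ranged for genotype in males from -0.0737 to 0.0743 (Irs1); for genotype in females from -1.01 to 0.0082 (Irs2), -0.0404 to 0.0298 (Akt1), -0.0579 to 0.0438 (Foxo1) and -0.0721 to 0.0499 (Fbxo32); for the difference from -0.0551 to 0.0037 (Akt2) and -0.2007 to 0.1408 (Trim63); for the mean genotype effect from -0.0007 to 0.0583 (Insr) and -0.3929 to 0.1329 (Irs2); for sex in Ctrl from -0.1016 to 0.0163 (Insr), -0.0244 to 0.0362 (Akt1), -0.0292 to 0.0297 (Akt2) and -0.1945 to 0.1453 (Trim63); and for sex in cKO from -0.07 to 0.0183 (Foxo1) and -0.1351 to 0.0352 (Trim63). With the replicate block, Irs2 with Trim63 had r = 0.601 (adjusted permutation p = 0.0796) and without the outlying mice 0.566 (adjusted permutation p = 0.183). Over 37 pairs of same-numbered mice from different groups the mean correlation of deviations was 0.0111, against -0.0017 over 216 other pairs. It exceeded 0.1 in 6 of the 37 and 29 of the 216, with top values of 0.404 and 0.205. Of the 26 mice, 6 correlated best with their own number. These averages cannot tell whether some numbers mark mice handled together. Over all genes the count called for genotype in males was 68, and 7 to 399 over the settings and 4 to 122 as single mice were left out. For genotype in females it was 5 (1 to 9; 3 to 7), for the mean genotype effect 205 (113 to 549; 96 to 349), for sex in Ctrl 98 (40 to 253; 54 to 125) and for sex in cKO 414 (244 to 707; 163 to 548).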

Other observations

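Ctrl female 2 was described over the FoxO list after its Irs2 and Trim63 values had been seen. It had the highest value of the 6 Ctrl females in 22.4% of all genes tested and the lowest in 24.3%. Of the 24 FoxO family and target genes it was highest in 7 (29.2%) and lowest in 4 (16.7%), near those shares. Of the 13 PI3K, PDK1 and mTORC2 activators it was lowest in 8 and highest in 2, and of the 14 ligands, binding proteins and receptor regulators highest in 6 and lowest in 1. The FoxO list genes in which it was highest were Cdkn1a, Map1lc3a, Klf15, Sesn1, Txnip, Bcl6 and Sqstm1, and those in which it was lowest were Cdkn1b, Sod2, Sesn3 and Ulk1. Cdkn1a, the cell cycle inhibitor p21, was at 90.2 CPM in that mouse and at 32.5 to 45.4 in the other 5. Bcl6, a transcriptional repressor, was at 27.9 CPM against 11.8 to 16.4, and Txnip, an inhibitor of thioredoxin and of glucose uptake, at 738 CPM against 302 to 616. Pdk4, the kinase that inhibits pyruvate dehydrogenase, was at 592 CPM, within the 289 to 661 of the other 5. Ulk1, a kinase that starts autophagy, was at 87.3 CPM against 100.8 to 110.5, Sesn3 at 15.9 against 17.9 to 22.7, Cdkn1b at 36.2 against 38.1 to 46.3, and Sod2 at 551 against 554 to 649.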
